A study of Mus musculus with 8 samples.

Results

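T cells that recognise an antigen need further signals from the cell that presents it, and several surface proteins of myeloid cells give or withhold them. Of these, 7 genes were followed here in resident microglia and invading macrophages of the mouse brain: Cd40, Cd80, Cd83, Cd86, Cd274, Pdcd1lg2 and Icosl. Their probes were taken by the gene name given in the array files, which yielded 10 of the 55681 gene probes: 2 each for Cd80, Pdcd1lg2 and Icosl and 1 each for the other genes. Together 9 probes, covering all 7 genes, were bright enough to be tested among 29357 tested probes, and the tenth is a probe of Pdcd1lg2.

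CD80 and CD86 bind CD28, which promotes T cell activation, and CTLA-4, which restrains it. ICOSL engages ICOS, and the receptor CD40 is triggered by CD40 ligand on activated T cells and in turn raises the costimulatory capacity of the presenting cell. CD274 (PD-L1) and PDCD1LG2 (PD-L2) are ligands of the inhibitory receptor PD-1, and CD83 is a surface marker of mature dendritic cells that also stabilises CD86 and class II molecules. In the healthy brain, microglia carry little of these proteins, and injury or inflammation can raise them.

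Both groups came from C57BL/6 bone marrow chimeras, examined after focal ischemia of the brain for 30 min (MCAo, in which the middle cerebral artery is blocked) and 7 days of reperfusion, with no further treatment, so neither group represents an uninjured brain. Resident microglia were sorted as GFP-positive cells and invading macrophages as RFP-positive cells, with both kinds taken from each of 4 animals, A to D. Replicates 1 to 4 of each group are animals A to D in that order. The RNA was amplified by a global PCR before it was hybridised to 8 one-colour arrays on 2 slides. The smaller slide held microglia replicates 1 and 2 and macrophage replicate 1, and the larger slide held the other 5 arrays. The arrays of animal B were thus on different slides, and slide and group were not balanced. Signals are log2 values relative to the 75th percentile of the probes on the same array, so that 0 marks that percentile and each unit is a doubling. They compare samples for 1 probe, not 1 probe with another. Differences are macrophages minus microglia.

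The 8 arrays had between 45.7% and 57.0% of their probes well above background, and no gene probe was saturated. Macrophages had lower signals for 6 of 10 microglia marker genes and a higher signal for 0, and the summed signal was 9.86 to 10.2 in microglia against 7.52 to 8.93 in macrophages. Of 8 measured monocyte genes, 4 were higher and none was lower. Macrophage replicate 2, from animal B, stood apart: it correlated with the other macrophage arrays at 0.840 to 0.872 across probes, whereas the microglia arrays did so among themselves at 0.927 to 0.956. Its summed endothelial marker signal was 9.60, against 3.57 to 5.97 on the other macrophage arrays and 2.02 to 2.44 on the microglia arrays. In such sorted samples, fewer cells of a type and less RNA per cell cannot be told apart.

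The array files give the 60-base probe sequences, and stretches of 30 bases are shown 5′ to 3′ for the probes on which the results turn. The files place the probes in build mm9, and their position relative to coding exons and UTRs was not analysed here. The probes of Cd40 and Cd86, the genes that passed the test, come first. Capitals mark AATAAA, the hexamer of polyadenylation signals, which 3 of the 10 probes held in the strand as printed, among 10.1% of all 55681 gene probes.
Cd40 probe A_55_P2036693, chr2:164897085-164897144, plus strand, bases 23 to 52: atttagttcttgAATAAAagacacactcaa
Cd86 probe A_55_P1971951, chr16:36603961-36604020, minus strand, bases 28 to 57: agagtggatttcAATAAAgttttcttgaat
The third probe with the hexamer was that of Icosl built on its RefSeq transcript. The other Icosl probe was designed to a GenBank record of GL50-B, an alternatively spliced form, and starts 3730 bases downstream, so the pair shows the gene at different places.
Icosl probe A_51_P520966, chr10:77542211-77542270, plus strand, bases 27 to 56: acctaacaagggAATAAAtgtaagatgtgc
Icosl probe A_55_P2172106, chr10:77545941-77546001, plus strand, bases 1 to 30: gactatttgattccaagatatttgatgtct

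The Cd80 probes start 7429 bases apart and gave differences of unequal size, so the first 30 bases of both are shown, with no part in capitals.
Cd80 probe A_66_P130432, chr16:38479343-38479402, plus strand, bases 1 to 30: ttcaatacgactcgcaaccacaccattaag
Cd80 probe A_55_P2001218, chr16:38486772-38486831, plus strand, bases 1 to 30: aaaggagaggtgcctagtcttactgcaact
The probes of Pdcd1lg2 are near copies: the second is shifted by 3 bases, and over the shared 57 bases they differ at 2 positions, shown in capitals. Counted from 1 at the 5′ end of the first probe, the changes from the first to the second probe are C53T and G58A.
Pdcd1lg2 probe A_55_P2122075, chr19:29545470-29545529, plus strand, bases 31 to 60: tggaagcatttaagcaacacgtCaagtGcc
Pdcd1lg2 probe A_55_P2187141, chr19:29545473-29545532, plus strand, bases 28 to 57: tggaagcatttaagcaacacgtTaagtAcc
The remaining probes were A_51_P199135 for Cd83 at chr13:43898276-43898335 and A_51_P248666 for Cd274 at chr19:29462363-29462422, both on the plus strand.

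The receptor and the ligands did not move together. Cd40 was higher in macrophages and Cd86 was lower, but neither call held with the slide as a block. Of 21 other settings, the Cd40 call was lost in 11 and the Cd86 call in 10. Both Cd80 probes and the Cd83 probe were lower on every macrophage array than on any microglia array but missed the threshold. Cd274 and Pdcd1lg2 had overlapping groups. With limma and Benjamini-Hochberg adjustment over all tested probes, 1 of the 9 member probes was called higher, beside 2.34% of all tested probes, and 1 was called lower, beside 4.11%, so that 2 were called beside 6.45% in either direction. The groups did not overlap for 5 of the 9, of which 4 were lower (9.39% of all tested probes) and 1 was higher (7.3%). The median log2 difference of the 9 probes was -0.96, against -0.00112 over all tested probes.

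**Figure D1:**
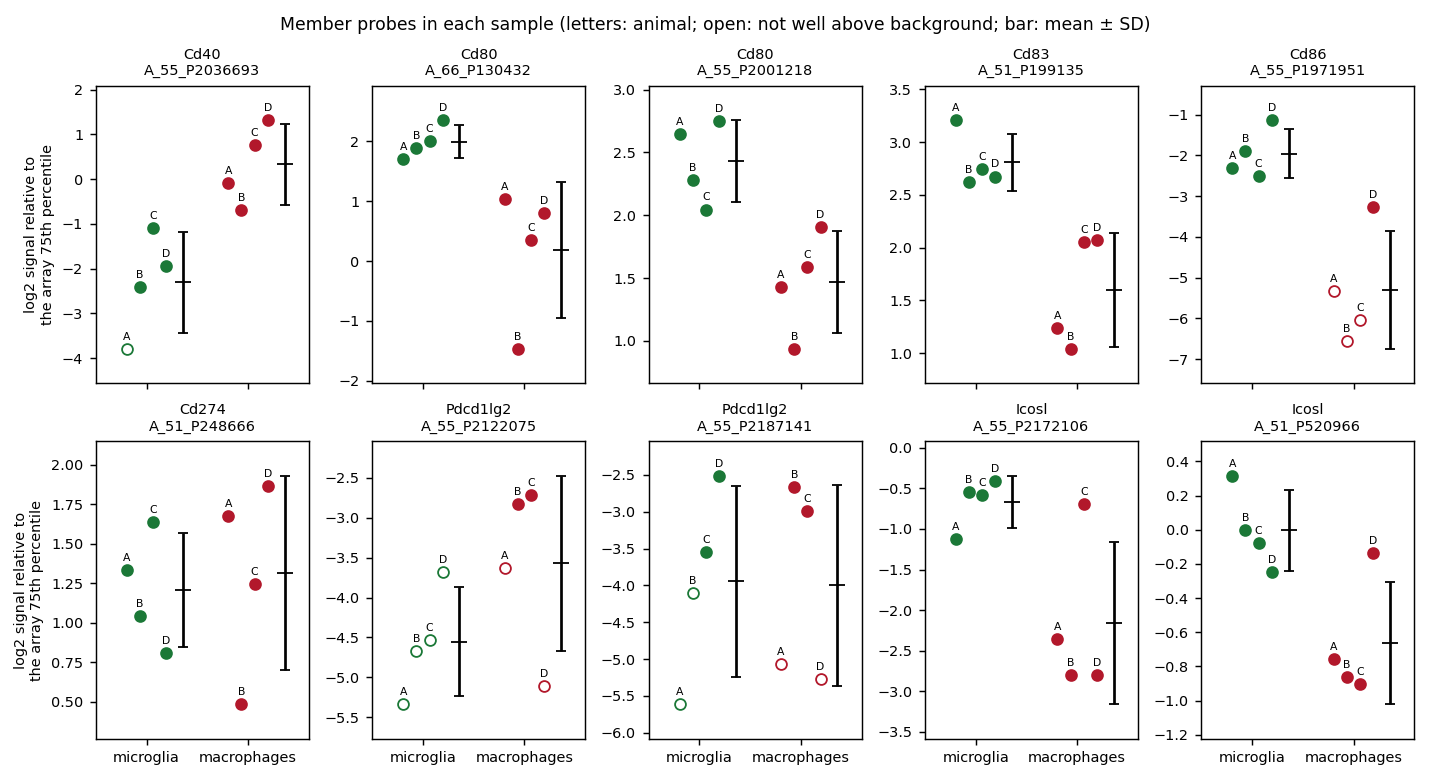
Log2 signal relative to the array's 75th percentile for each of the 10 member probes, with 1 point per sample (green microglia, red macrophages, letters for animals, open points not well above background) and the mean ± SD of each group; each panel has its own scale. The groups are apart for Cd40, both Cd80 probes, Cd83 and Cd86, and they overlap for Cd274, Pdcd1lg2 and Icosl.

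Cd40, the receptor through which T helper cells license antigen-presenting cells, measured -3.79, -2.41, -1.08 and -1.93 in the microglia of animals A, B, C and D. In the macrophages of the same animals it measured -0.08, -0.70, 0.77 and 1.32. Every macrophage array lay above every microglia array, and the lowest microglia value, from animal A, was not well above background. The group means were -2.30 ± 1.13 and 0.33 ± 0.90 (SD, n = 4), a log2 difference of 2.63 with a standard error of 0.63 (limma, adjusted p = 0.0443, higher in 4 of 4 animals). With the 1 signal under its array's detection floor raised to that floor, Cd40 was 5.85-fold higher. That floor is the dimmest signal of any probe well above background there. The difference within animals was 3.71 in A, 1.71 in B, 1.86 in C and 3.26 in D.

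The call for Cd40 was close to the threshold. It held when the animal was a block (adjusted p = 0.0419) but not with the slide as a block (2.35, adjusted p = 0.0681, limma). The differences were 3.02 on the slide with 3 arrays, of which 1 was from macrophages, and 1.97 on that with 5. With 1 array left out the call held without macrophage replicate 2 or microglia replicate 3 (adjusted p = 0.0238 and 0.0414, limma). It was lost in the other 6 fits, at up to 0.118. Cd40 is also known on B cells, dendritic cells and activated endothelium. Of 8 B cell markers, 7 were well above background on some array, Ms4a1 was on none, and their summed signal was 0.72 to 2.08 in microglia and 0.32 to 0.95 in macrophages. Of 10 dendritic cell markers, all were well above background on some array. Of 8 tested, only Klrd1, also a gene of natural killer cells, was higher at its brightest probe. For Flt3 and Kmo, 1 of 2 tested probes each was called higher, and the brightest Flt3 probe differed by 3.05 (limma, adjusted p = 0.0830). The summed signal of the 10 markers was 1.46 to 2.32 in microglia and 2.08 to 3.90 in macrophages. Of 10 endothelial markers, 9 were tested and 4 were higher, or 7 without macrophage replicate 2. The highest dendritic and endothelial sums were those of macrophage replicate 2. The endothelial sums of the other macrophage arrays were 3.57 to 5.97, against 2.02 to 2.44 in microglia. Without macrophage replicate 2 the Cd40 difference was 2.97. The part of these cells in the Cd40 result was not tested.

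**Figure D2:**
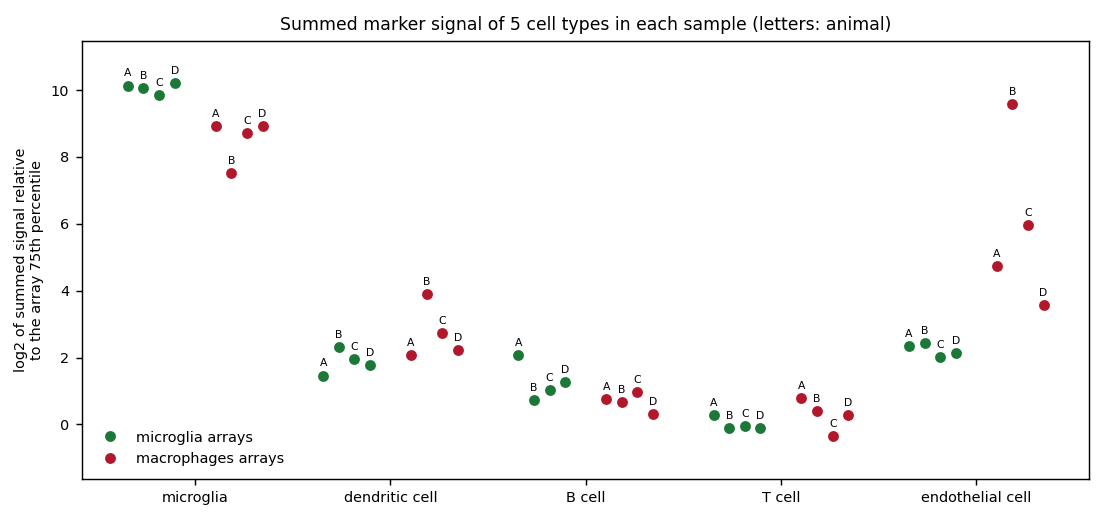
Log2 of the summed signal of microglia, dendritic cell, B cell, T cell and endothelial markers in each sample (green microglia, red macrophages, letters for animals). The endothelial sum reaches 9.60 in the macrophages of animal B, while the B cell sums stay between 0.32 and 2.08 in all samples.

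Cd86, a costimulatory ligand of CD28 and CTLA-4, measured -2.31, -1.89, -2.50 and -1.13 in the microglia of animals A to D. The macrophage arrays gave -5.32, -6.56, -6.04 and -3.27, of which the value from animal D was well above background. The groups did not overlap, and the means were -1.96 ± 0.61 and -5.30 ± 1.45 (SD, n = 4). The log2 difference was -3.34 with a standard error of 0.68 (limma, adjusted p = 0.0236, lower in 4 of 4 animals). The probe was well above background on all 4 microglia arrays, and these alone were enough to admit it to the test. Because 3 of the 4 macrophage values lay under the array floor, the fold is not exact: with these raised to the floor, Cd86 was 3.09-fold lower. The probe was dim in microglia too.

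The Cd86 call held when the animal was a block (adjusted p = 0.0270). With the slide as a block it narrowly missed the threshold (adjusted p = 0.05003), with differences of -3.22 and -3.47 on the smaller and the larger slide. Of the 8 fits without 1 array it held in those without macrophage replicate 2 (-2.92, adjusted p = 0.0284) or replicate 4 (-4.02, adjusted p = 0.00213), and in the others adjusted p reached 0.0738 (limma). With another background correction (normexp, which models background and adds an offset) the difference was -0.92 (adjusted p = 0.0511) for Cd86 and 1.52 (adjusted p = 0.0272) for Cd40.

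Cd80, the other ligand of CD28 and CTLA-4, was read by 2 probes that were well above background on all 8 arrays. Probe A_55_P2001218 measured 2.65, 2.28, 2.05 and 2.75 in the microglia of animals A to D and 1.43, 0.94, 1.59 and 1.91 in the macrophages. Probe A_66_P130432 measured 1.70, 1.89, 2.02 and 2.36 in microglia and 1.04, -1.47, 0.36 and 0.80 in macrophages. On both probes every macrophage value lay below every microglia value, with that of animal B the lowest. The differences were -0.96 with a standard error of 0.29 (adjusted p = 0.0869) and -1.81 with a standard error of 0.52 (adjusted p = 0.0797, limma), each lower in 4 of 4 animals, and neither passed. Their 95% intervals were a 1.24-fold to 3.08-fold and a 1.54-fold to 8.01-fold lower level. Both probes passed with the percentile over probes seen on all arrays (adjusted p = 0.0243 and 0.0356, limma) and with normexp (0.0345 and 0.0335). The first also passed with quantile normalization (0.0381) and the deposited table (0.0382), which gave nearly the same values and are not separate support. Without macrophage replicate 2, A_66_P130432 differed by -1.26 and passed (adjusted p = 0.0213, limma). A_55_P2001218 and A_66_P130432 did not pass with the animal (adjusted p = 0.121 and 0.113) or the slide (0.150 and 0.144, limma) as a block. Median centring gave 0.197 and 0.120 (adjusted p, limma). They passed in 4 of 21 and 3 of 20 other settings.

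The gap between the Cd80 probes on the same array was -0.44 ± 0.38 in microglia and -1.28 ± 0.84 in macrophages (SD, n = 4). That change of -0.85 had p = 0.0857 (exact permutation test over samples, two-sided) and 0.107 after adjustment over the 5 pairs of probes compared in this way. A difference between the probes was not shown, and the change was -0.47 without macrophage replicate 2. The smallest p that 4 arrays against 4 can give is 0.0286.

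Cd83, which marks mature dendritic cells, measured 3.21, 2.62, 2.74 and 2.67 in the microglia of animals A to D. In macrophages it measured 1.24, 1.04, 2.06 and 2.07. The groups were apart, yet the difference of -1.21 with a standard error of 0.32 missed the threshold (limma, adjusted p = 0.0593, lower in 4 of 4 animals). Its 95% interval was -1.93 to -0.49, which is a 1.40-fold to 3.81-fold lower level. Cd83 did not pass with the animal or the slide as a block (adjusted p = 0.123 and 0.103, limma). With 1 array left out it passed in 0 of 8 fits (adjusted p = 0.0569 to 0.134, limma). Among all 21 other settings it passed in 5. Other scalings put it past the threshold: with a percentile that uses only probes seen on all arrays the difference was -1.37 (adjusted p = 0.0200), and with quantile normalization it was -1.36 (adjusted p = 0.0260). Centring each array on its median gave -1.003 (adjusted p = 0.125, limma). Under these scalings the median difference of all tested probes was -0.16, -0.01 and 0.20, against -0.00112 as reported.

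**Figure D3:**
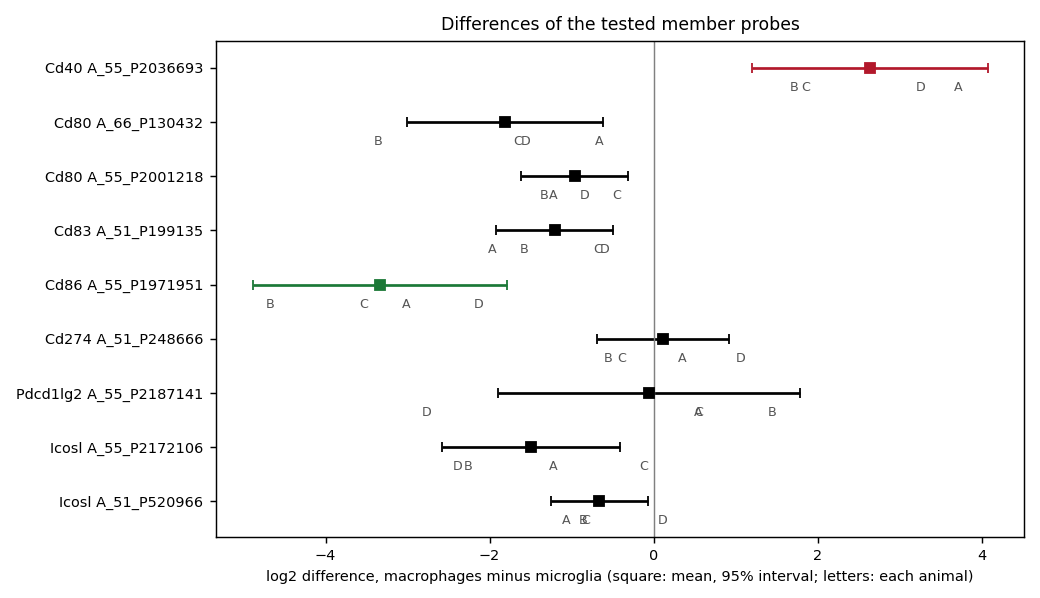
Log2 difference, macrophages minus microglia, for the 9 tested member probes, as mean (square) with its 95% interval and as the difference within each animal (letters); red is called higher, green called lower, black not called. Cd40 lies at 2.63 and Cd86 at -3.34, and the intervals of Cd274 and Pdcd1lg2 span 0.

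Icosl, the ligand of ICOS, was lower by both probes without passing the test. The probe of the RefSeq transcript, A_51_P520966, measured 0.32, 0.00, -0.08 and -0.25 in the microglia of animals A to D and -0.75, -0.86, -0.91 and -0.14 in the macrophages. The probe of the GL50-B form, A_55_P2172106, measured -1.13, -0.54, -0.58 and -0.40 in microglia and -2.35, -2.80, -0.70 and -2.80 in macrophages. One macrophage array reached into the microglia range on each probe, that of animal D on the first and that of animal C on the second. The mean level was 1.58-fold lower on the first (standard error 0.26 in log2, adjusted p = 0.170, lower in 3 of 4 animals) and 2.83-fold lower on the second (standard error 0.48, adjusted p = 0.102, lower in 4 of 4). Without macrophage replicate 3, from animal C, the GL50-B probe differed by -1.99 and passed (adjusted p = 0.0105, limma). That was the only 1 of 20 other settings in which it passed. With the animal or the slide as a block adjusted p was 0.142 and 0.144 (limma). The RefSeq probe passed in 0 of 21. The gap between the Icosl probes changed by -0.84 (exact permutation p = 0.286, adjusted 0.286), so a difference between the transcript forms was not shown.

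Cd274, the main ligand of PD-1, measured 1.33, 1.04, 1.64 and 0.81 in the microglia of animals A to D. Its values in macrophages were 1.67, 0.48, 1.25 and 1.86. The macrophage values spanned the whole microglia range, from the lowest of all 8 in animal B to the highest in animal D. The means were 1.21 ± 0.36 and 1.32 ± 0.61 (SD, n = 4), and the difference was 0.11 with a 95% interval of -0.69 to 0.91 (limma, adjusted p = 0.879, higher in 2 of 4 animals). The upper end is a 1.88-fold higher level, so a change of that size is not excluded. The sign of so small a value turned with the percentile over probes detected on all arrays (-0.05).

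Pdcd1lg2, the second ligand of PD-1, was near the detection floor in both groups. Probe A_55_P2187141 measured -5.62, -4.11, -3.55 and -2.51 in the microglia of animals A to D and -5.07, -2.66, -2.99 and -5.27 in the macrophages. It was well above background on 2 arrays of each group, those of animals C and D in microglia and B and C in macrophages. The difference was -0.06 with a 95% interval of -1.89 to 1.78 (limma, adjusted p = 0.976). The near-copy probe A_55_P2122075 measured -5.34, -4.66, -4.53 and -3.68 in microglia and -3.63, -2.83, -2.72 and -5.11 in macrophages. It was well above background on 2 macrophage arrays, those of animals B and C, and was too dim to be tested.

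Pairs of members were compared by their gap on the same array. The gap of Cd40 over Cd86 was -0.34 ± 1.25 in microglia and 5.63 ± 0.95 in macrophages (SD, n = 4), a change of 5.97. That of Cd80 (A_55_P2001218) over Cd86 rose from 4.39 ± 0.47 to 6.76 ± 1.13, a change of 2.38. The Cd80 and Cd86 change had exact permutation p = 0.0286, the smallest possible, and 0.0714 after adjustment over the 5 pairs. The Cd40 and Cd86 change is given as a description, since groups that do not overlap in opposite directions fix its separation. Its p was still among the 5 adjusted together. The adjusted p of the other pairs, except that of the Icosl probes, is therefore lower than it would be without this pair. The gap of Cd274 over Cd80 went from -1.23 ± 0.63 to -0.15 ± 0.31, a change of 1.08 (exact permutation p = 0.0571, adjusted 0.0952). Since 3 of the 4 macrophage values of Cd86 lay under the floor, the sizes that involve Cd86 are not exact. The separation and the p of the Cd80 and Cd86 change rest on those values as measured, so no conclusion is drawn from them.

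The genes whose profile over the 8 arrays was most like that of a member were found by the root mean square difference in log2 signal after removal of each gene's own mean, among 11831 named genes. For Cd40 they included Klra2 (0.57) and Nqo1 (0.60), and for Cd86 they were Bmpr1a (0.42), Fam101a (0.46) and Aldh1l2 (0.49). Those nearest to Cd80 were Cd82 (0.10), Rdh14 (0.13) and Nop2 (0.16), and those nearest to Cd83 were Isca1 (0.16), Lmx1b (0.19) and Dapp1 (0.19). Cd274 was nearest to Ampd3 (0.10), Ext1 (0.12) and Kansl2 (0.12), Icosl (A_51_P520966) to Nit1 (0.11), Gas6 (0.14) and Akap8l (0.15), and Pdcd1lg2 to Gtdc2 (0.32), Trappc6a (0.46) and Glyctk (0.51).

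The receptors that these ligands meet on T cells, with related receptors and CD40 ligand, formed a list of 14 genes, read at the brightest tested probe of each. Of 9 tested, 1 was higher and 3 were lower, with a median difference of -1.20. Over all genes read in this way, 2.28% were higher and 3.94% lower. Lag3, an inhibitory receptor for class II molecules, measured 4.50 to 5.05 in microglia and -2.09 to -0.12 in macrophages, a 43.8-fold lower level (limma, adjusted p = 0.000258). Icos, the receptor of ICOSL, measured -2.49 to -1.55 in microglia and was not well above background on any macrophage array. It entered the test through its microglia signals alone (limma, adjusted p = 0.000216). With macrophage values raised to the floor it was 3.43-fold lower, and other scalings gave log2 differences of -3.86 to -0.88. Pdcd1, which encodes PD-1, measured 2.14 ± 0.66 and -0.43 ± 0.91 (SD, n = 4), a 5.92-fold lower level (adjusted p = 0.0202, or 0.0691 in the fit blocked by animal, limma). Tnfrsf18, the receptor GITR, passed at 0.0344 (0.113 in the blocked fit) and was 2.61-fold higher with the 1 microglia array under its floor raised to it. Its probe was well above background on 1 of 4 microglia arrays.

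Lag3 and Icos were called whichever array was left out. Pdcd1 lost the call without macrophage replicate 1 or microglia replicate 2 or 3 (adjusted p up to 0.0586), and Tnfrsf18 kept it only without macrophage replicate 2. Cd28, the activating receptor of CD80 and CD86, measured -0.34 ± 0.27 and -0.92 ± 1.19 (SD, n = 4, limma, adjusted p = 0.558), and Ctla4 and Cd40lg were too dim to be tested. These receptors are best known from T cells. Of 8 T cell markers with a probe, 7 were well above background on some array, Cd8b1 was on none, 3 were tested and 0 passed (0 also without macrophage replicate 2). Their summed signal was -0.10 to 0.29 in microglia and -0.36 to 0.78 in macrophages. At the probes read, Lck and Cd4 were well above background on all 8 arrays, but the others were not. Cd3d and Cd3g were so on 1 macrophage array each and on no microglia array. Cd2 was so on 2 macrophage arrays and no microglia array, and Cd8a on 3 microglia arrays and no macrophage array. Cd3e measured -3.80 ± 0.75 and -3.84 ± 1.43 (SD, n = 4) and was well above background on 3 microglia arrays and 1 macrophage array. The part of T cells in the receptor signals was not tested.

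Of 20 further ligands and adhesion proteins that stimulate or inhibit T cells, 13 were tested, 1 was higher and 2 were lower, with a median difference of -0.18. Rgmb, which binds PDCD1LG2 and is a co-receptor of bone morphogenetic proteins, measured 1.79 to 2.11 in microglia and -0.85 to -0.46 in macrophages. It was 6.17-fold lower (limma, adjusted p = 0.000216) and was called whichever array was left out. Vsir, the inhibitory ligand VISTA, was 3.21-fold lower (adjusted p = 0.0306, or 0.0642 in the blocked fit). Tnfsf14, the ligand LIGHT, was 3.16-fold higher (adjusted p = 0.0189, or 0.0824 in the blocked fit, limma). Vsir lost the call without macrophage replicate 1 or microglia replicate 2, 3 or 4, and Tnfsf14 without macrophage replicate 3 or microglia replicate 2, 3 or 4. Cd276, the ligand B7-H3, differed by -1.72 without passing (adjusted p = 0.0579, or 0.0386 without macrophage replicate 2). Without that replicate the list had 2 higher and 3 lower.

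**Figure D4:**
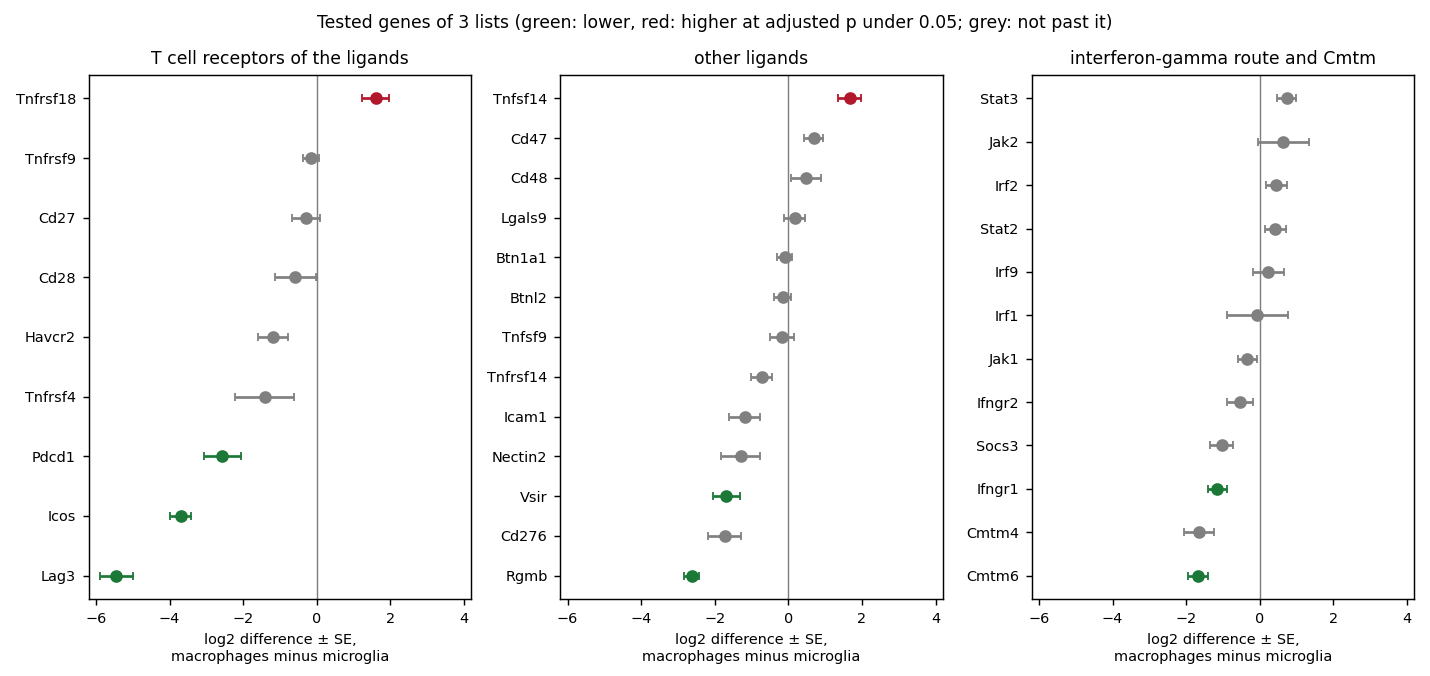
Log2 difference ± standard error, macrophages minus microglia, for the tested genes of 3 lists: receptors of the ligands, other ligands, and the interferon-gamma route with the Cmtm proteins (green called lower, red called higher, grey not called). Lag3 lies at -5.45, Icos at -3.70, Rgmb at -2.63 and Cmtm6 at -1.68.

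CD274 is induced by interferon-gamma through JAK kinases and interferon regulatory factors, and the membrane proteins CMTM6 and CMTM4 protect it from degradation. Of the 13 genes of this route described here, 12 were tested and 2 of these were lower, with a median difference of -0.20. Cmtm6 measured 3.68 to 4.39 in microglia and 2.18 to 2.72 in macrophages and was 3.20-fold lower (limma, adjusted p = 0.00748), a call that held whichever array was left out. Ifngr1, a chain of the interferon-gamma receptor, was 2.23-fold lower (adjusted p = 0.0352, or 0.0660 in the blocked fit). Ifngr1 stayed called in 3 of 8 fits that dropped an array. Cmtm4 differed by -1.65 (adjusted p = 0.0528, or 0.0298 in the blocked fit, limma), and Irf1 by -0.06 (adjusted p = 0.973). For Cmtm4, 1 of its 2 tested probes was called lower. At the brightest probe, none of the 6 genes of the interleukin 4 and STAT6 route, by which macrophages raise Pdcd1lg2, passed with limma. Without macrophage replicate 2 Il2rg did (adjusted p = 0.0229, limma). With all arrays, 1 of the 2 tested Il4ra probes was called lower.

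CD40 signals through TRAF adaptors to NF-kappaB. All 17 genes of this route were tested, and at the brightest probe Traf5 alone passed, 2.70-fold lower in macrophages (limma, adjusted p = 0.0191, or 0.0770 in the blocked fit). It stayed called in 4 of 8 fits that dropped an array. Traf1, an adaptor that is itself induced by NF-kappaB, differed by 2.16 (adjusted p = 0.0964) and passed with the block (0.0393). Relb differed by -1.09 (adjusted p = 0.114) and Chuk by 0.79 (adjusted p = 0.128). For Relb, 1 of its 3 tested probes was called lower. The list had a median difference of -0.21, and 2 genes were lower without macrophage replicate 2.

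CD86 shares its route of turnover with class II molecules, since the ligase MARCH1 marks both for degradation and CD83 opposes it. Of the 7 genes of that list, the 4 that encode class II chains or the invariant chain were higher and none was lower. H2-Ab1 was 2.92-fold higher (limma, adjusted p = 0.00378), H2-Aa 2.90-fold (0.00613), Cd74 3.14-fold (0.00645) and H2-Eb1 3.99-fold (0.0188), and all were called in the blocked fit. H2-Eb1 lost the call without microglia replicate 3 (adjusted p = 0.0606, limma), and the other 3 kept it whichever array was left out. The class II genes thus differed in the opposite direction to Cd86, a pattern given here for the 4 of 7 genes that passed. March8 differed by -0.05 (adjusted p = 0.950) and Ciita, the class II transactivator, by 0.01 (adjusted p = 0.983).

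Among 16 genes of dendritic cell maturation, 12 were tested, 2 were higher and 1 was lower, with a median difference of -0.15. Fscn1, which encodes the actin bundler fascin, measured 2.61 to 3.24 in microglia and -3.27 to -1.62 in macrophages. With 1 dim macrophage array raised to the floor it was 40.8-fold lower (limma, adjusted p = 8.71e-05), a call kept whichever array was left out. The chemokine genes Ccl17 and Ccl22 were 8.07-fold and 3.50-fold higher (limma, adjusted p = 0.0221 and 0.0354), the latter with signals under the floor raised to it. Ccl22 was not well above background on any microglia array and entered the test through its macrophage signals alone. Other scalings gave log2 differences of 0.84 to 2.93 for Ccl22. Ccl17 stayed called in 4 and Ccl22 in 3 of 8 fits that dropped an array, and the list had 4 lower genes without macrophage replicate 2. Ccr7, which guides mature dendritic cells to lymph nodes, was well above background on 2 macrophage arrays and on none of microglia, and was not tested.

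**Figure D5:**
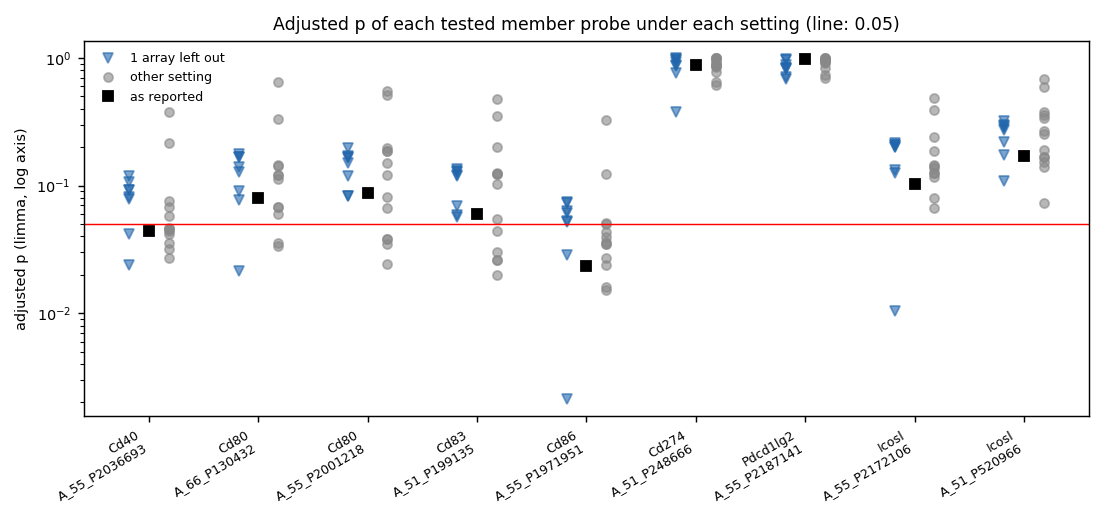
Adjusted p (limma, log axis) of the 9 tested member probes as reported (squares), with 1 array left out (triangles) and under the other settings (circles); the line marks 0.05. Cd40 and Cd86 lie on both sides of the line, and Cd274 and Pdcd1lg2 stay at or above 0.377 throughout.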

How the data were processed

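Each of 8 samples was read on 1 one-colour Agilent array. Per the file headers, Feature Extraction 10.7.3.1 subtracted background and corrected trends within the array, giving an intensity that the authors deposited without normalization between arrays. The authors also deposited log2 values of the same arrays, with column medians of 4.604 to 4.606, with no normalization or centring stated in those sources. Those values gave 709 higher and 1304 lower probes, against 709 and 1305 with quantile normalization. The 2 settings are thus nearly the same and do not count as separate support. Control and outlier spots were left out, spots of a probe were averaged as log2, and the 75th percentile of each array was taken off. Probes well above background on at least 4 of 8 arrays were tested with limma 3.58.1 in R 4.3.3 (lmFit, eBayes, two-sided), with Benjamini-Hochberg adjustment over 29357 probes and a threshold of 0.05. The fit was tested on simulated data.

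Samples are paired because the labels name their animal. Same-animal deviations around the group means correlated at 0.0416, 0.0975, 0.0698 and -0.0188 for A to D. The fit without the animal is reported. Slides were tried as a block. The members and gene lists were chosen with earlier results of these data known. Every member probe is described, and up to 4 genes of each list, by lowest adjusted p, with others chosen after their values were seen. List genes were read at their brightest tested probe. Where that probe was not called, another was called lower for Cx3cr1, Relb, Il4ra and Cmtm4, and higher for Plac8, Flt3, Kmo and Klra8. The probes read for March1, Btn1a1, Il15ra and Tnfrsf9 were very bright and flat, and whether they measure the named genes was not tested. They stay in the counts and medians of their lists. The number of arrays limits the precision. One gene was left out of the lists and is not reported here.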

Additional observations from a re-analysis of the deposited data

How the results depend on the processing

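Over all tested probes 688 were higher and 1206 lower in macrophages. The replicate block, with the animal as the pairing, gave 352 and 735, and changed no call of a member. Both blocks together gave 245 and 598, with Cd40 no longer called (adjusted p = 0.0575) and Cd86 called (0.0429). The slide block alone left 429 higher. Within the smaller slide 16 and 74 passed, and within the larger 17 and 187. Higher probes numbered 1065 with median centring, 406 with no filter on dim probes and 1116 with normexp background. Leaving out 1 array gave 305 to 2095 higher and 676 to 2005 lower, the highest counts being those without macrophage replicate 2. The share of called probes that were higher was 36.3%, against 53.2% with median centring and 25.4% with the percentile over probes detected on all arrays.

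Of member probes, 1 was higher and 1 lower. None was higher (0) with no filter, with the slide block, with both blocks or within either slide, and none lower (0) with the slide block or within either slide. Lower probes numbered 2 where detection on all arrays of a group was required, 3 with normexp, quantile normalization or the deposited table, and 4 with the percentile over probes detected on all arrays. With 1 array left out, 0 to 1 were higher and 0 to 2 lower. Cd274 turned sign with the deposited table (-0.0018), quantile normalization (-0.00096), the percentile over probes detected on all arrays (-0.047) and within the larger slide (-0.026), and was -0.071 to 0.39 with 1 array left out. Pdcd1lg2 (A_55_P2187141) turned sign with the deposited table (0.0080), median centring (0.15), normexp (0.039) and quantile normalization (0.0097), and was -0.61 to 0.42 with 1 array left out. Beyond fewer arrays or other probes tested, the causes were not tested. Signal over background limits Cd86 and Pdcd1lg2 most.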
